A study of Homo sapiens with 2 samples.

Results

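The MYC network genes described here are 10 named genes: the MYC family members MYC, MYCN and MYCL, the partner and antagonist genes MAX, MXI1, MNT and MLX, and the known MYC targets ODC1, NCL and NPM1. They were chosen by name, and all 10 were found among the 33538 genes of the count matrices. They were measured in 2 established Ewing sarcoma cell lines, CHLA9 and TC71, with 1 droplet 3′ library of each. Ewing sarcoma is a bone and soft tissue tumour driven by a fusion of EWSR1 with an ETS gene, most often FLI1. The medium was IMDM for CHLA9, with 20% fetal bovine serum, insulin, transferrin and selenite, and RPMI for TC71, with 10% of the serum. Neither line carried a further treatment, and CHLA9 was sequenced again on a second instrument, so that line, medium and sequencing cannot be told apart. Each line is a single culture, so values between the lines carry no test and no p-value.

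Cells were barcodes with 5000 or more unique molecular identifiers (UMIs, tags that count each captured transcript once), 2000 or more genes and no more than 15% of UMIs from mitochondrial genes. These filters kept 4524 of 5077 barcodes in CHLA9 and 1729 of 8468 in TC71, most of the rest of TC71 falling under the UMI limit. The kept cells had a median of 34656 UMIs in CHLA9 and 33370 in TC71, and the libraries shared 3 kept barcodes. Levels are UMIs summed over the cells of a line and scaled to a total of 1000000 (CPM), with exact 95% Poisson intervals, which cover counting error only. Since each transcript is counted once, gene length does not enter. All 10 Ewing sarcoma markers examined were above 1 CPM on average over the lines, CD99, the surface antigen used in diagnosis, at 1141 CPM in CHLA9 and 402 CPM in TC71. Of 12 markers of blood, liver, epithelial, endothelial, fibroblast, pancreas and heart cells, CD3E, HBB, INS and MYH6 had no UMI in either line, and the highest, DCN, reached 13.6 CPM in CHLA9 and 2.86 CPM in TC71.

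MYC is a transcription factor that binds DNA only as a dimer with MAX, at the E-box CACGTG, and raises the output of genes for ribosome assembly, nucleotide and polyamine synthesis. MYCN and MYCL are paralogs with the same partner, best known from neuroblastoma and small cell lung cancer. MXI1 and MNT pair with MAX on the same sites and recruit repressors, and MLX is the MAX-like partner of the glucose-sensing factors MLXIP and MLXIPL.

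All members are protein coding in GENCODE 44, and coordinates are those of GRCh38, the build of the count files. MYCN is at chr2:15940550-15947007 on the plus strand, MYCL at chr1:39895428-39902256 on the minus strand and MAX at chr14:65006174-65102695 on the minus strand. MXI1 is at chr10:110207605-110287365 (plus), MNT at chr17:2384073-2401104 (minus) and MLX at chr17:42567072-42573239 (plus). ODC1 is at chr2:10439968-10448327 (minus), NCL at chr2:231453531-231483641 (minus) and NPM1 at chr5:171387116-171411810 (plus).

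The E-box is the sequence through which the network reads its targets, so sites near the start of partner and target genes are shown, with CACGTG in capitals and all bases read 5′ to 3′ on the strand of the gene. CACGTG is its own reverse complement, so each site counts for both strands. In a window from 1000 bases before to 1500 bases after the GENCODE 44 canonical start site, 8 of the 10 members had at least 1 site, and MYC and MYCN had none. The same window held a site in 33.3% of 20046 protein-coding genes. In the narrower RefSeq promoter windows, from 250 bases before to 50 after the start, 7.26% of 35116 windows held a site, and of the 9 members matched there MNT and MLX held 1 each and ODC1 held 2. These are matches of letters, and binding was not measured. ODC1, NCL and NPM1, the target genes, carried sites in an intron, at +286 and +320 bases from the start site in ODC1, as a pair from +471 in NCL and as a pair from +725 in NPM1. ODC1 had a further site upstream, at -493 bases. The sites shown for the partner genes MNT and MLX lie upstream, at -193 and -50 bases, and MNT had others in an exon, at +415, and an intron, at +1326. The only site of MXI1 was in an intron, at +1412.
ODC1, chr2:10448024-10448053, minus strand: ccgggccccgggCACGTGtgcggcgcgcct
ODC1, chr2:10447990-10448019, minus strand: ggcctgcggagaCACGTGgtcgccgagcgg
NCL, chr2:231463984-231464013, minus strand: CACGTGcccgggagcgcggcctgcCACGTG
NPM1, chr5:171388568-171388596, plus strand: tgggagCACGTGgttgcCACGTGgttggg
MNT, chr17:2401236-2401265, minus strand: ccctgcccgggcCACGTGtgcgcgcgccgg
MLX, chr17:42567038-42567067, plus strand: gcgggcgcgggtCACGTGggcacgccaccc

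Among the 3 family genes, the level of MYC was by far the highest in both lines. CHLA9 had 33548 MYC UMIs, or 192 CPM (189.7 to 194), and TC71 had 14826, or 254 CPM (249.99 to 258). That placed MYC at rank 809 of 22821 detected genes in CHLA9 and at rank 585 of 20793 in TC71. MYC took 97.1% of the UMIs of MYC, MYCN and MYCL in CHLA9 (95% Clopper-Pearson interval 97.0 to 97.3) and 99.2% in TC71 (99.0 to 99.3).

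MYCN had 259 UMIs in CHLA9 (1.48 CPM, 1.31 to 1.67) and 23 in TC71 (0.394 CPM, 0.250 to 0.591). There were 129.5 MYC UMIs for each MYCN UMI in CHLA9 (115 to 147) and 645 in TC71 (429 to 1017). MYCL had 731 UMIs in CHLA9 (4.18 CPM, 3.88 to 4.49) and 102 in TC71 (1.75 CPM, 1.43 to 2.12), with 45.9 MYC UMIs for each MYCL UMI in CHLA9 and 145 in TC71. Both paralogs were therefore low in each line, and lower in TC71 than in CHLA9. MYCNOS, the antisense gene at the MYCN locus, was at 0.160 CPM in CHLA9 and 0.0343 CPM in TC71, while DDX1 and NBAS, which neighbour MYCN on chromosome 2, were at 139 and 49.9 CPM in CHLA9 and at 196 and 40.0 CPM in TC71.

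To compare shares of cells, each cell was thinned to 10000 UMIs, which left out 14 CHLA9 cells and 59 TC71 cells with fewer. A MYC UMI was then seen in 79.0% of CHLA9 cells (77.8 to 80.2) and in 86.5% of TC71 cells (84.8 to 88.1), with a median of 2 MYC UMIs per cell in both. Unthinned, the share was 97.7% in both lines. A MYCN UMI was seen in 1.44% of thinned CHLA9 cells (1.11 to 1.83) and in 0.12% of thinned TC71 cells (0.0145 to 0.432), that is in 2 of 1670 cells. Unthinned, MYCN was seen in 4.86% of CHLA9 cells and 1.21% of TC71 cells. A MYCL UMI was seen in 3.92% of thinned cells in CHLA9 (3.38 to 4.53) and in 1.68% in TC71 (1.12 to 2.41). For scale, the liver gene APOA1 had a UMI in 0.599% of thinned cells of CHLA9 and 1.68% of TC71, at 0.634 and 1.59 CPM, and the fibroblast gene DCN in 12.7% and 2.75%. The MYCN and MYCL shares of TC71 were at or below that of APOA1, and cannot be told apart from background, which was not measured in empty droplets. In CHLA9 they were above that of APOA1 and below that of DCN, and whether these UMIs came from expressing cells was not tested.

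UMIs of MYCN and MYC were found in the same cells. Of the 65 thinned CHLA9 cells with a MYCN UMI, 58 also had a MYC UMI, and 7 did not. Over all thinned CHLA9 cells, 79.0% had a MYC UMI. MYC was at 258 CPM in those 65 cells (221 to 301) and at 197 CPM in the cells without a MYCN UMI (193 to 201), so MYC was not lower where MYCN was seen. At full depth the CHLA9 values were 207 CPM (198 to 217) in the 220 cells with a MYCN UMI and 191 CPM (189 to 193) in the other 4304. In TC71 at full depth, MYC was at 221 CPM (190 to 257) in the 21 cells with a MYCN UMI. It was at 255 CPM (250 to 259) in the other 1708 TC71 cells, and these intervals overlapped. In CHLA9 cells with a MYCL UMI, MYC was at 180.2 CPM after thinning (161 to 201), against 198 CPM without one, a value inside that interval. At full depth it was at 185 CPM (180.0 to 190.2) in the 650 cells with a MYCL UMI and at 193 CPM (191 to 195) in the others. These intervals lay apart, but they cover counting error only, and MYC UMIs varied among cells more than counting gives. Whether MYC was lower in CHLA9 cells with a MYCL UMI was not tested. The 650 cells had a median of 36397 UMIs and the others 34452. In TC71, MYC was higher at full depth in the 101 cells with a MYCL UMI, at 280 CPM (263 to 298) against 252 CPM (248 to 257). After thinning the TC71 values were 318 CPM (255 to 391) and 256 CPM (249 to 264).

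**Figure D1:**
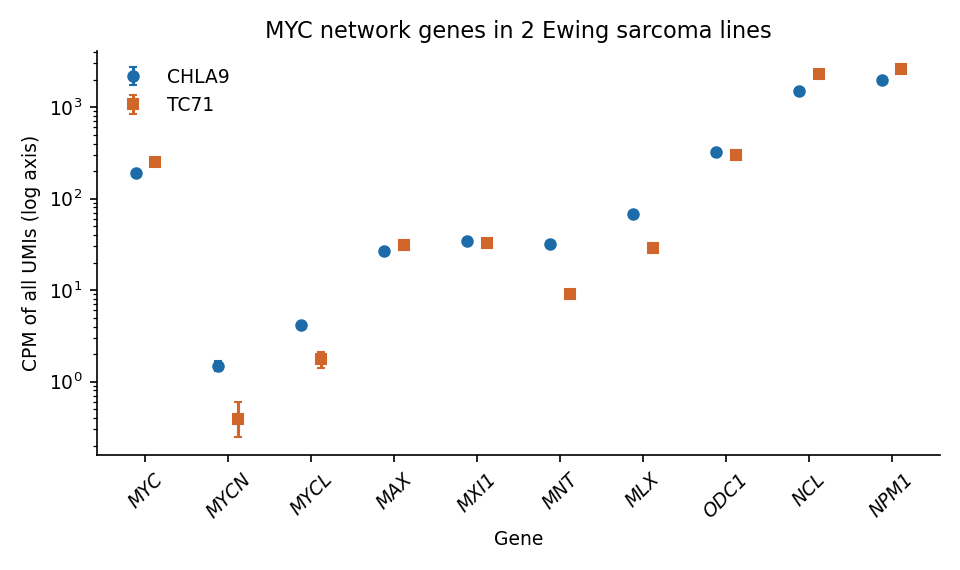
Levels of the 10 genes in CHLA9 (circles) and TC71 (squares), as CPM of all UMIs of the kept cells on a log axis, with exact 95% Poisson intervals as bars. NPM1, NCL, ODC1 and MYC lead in both lines, MYCL and MYCN are lowest, and MNT and MLX lie apart between the lines.

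The partners were less abundant than MYC. MAX, the obligate partner, was at 26.5 CPM (25.7 to 27.3) in CHLA9 and 31.4 CPM (29.97 to 32.9) in TC71. MXI1, a MAX-binding antagonist of the MXD family, was at 34.3 CPM (33.4 to 35.2) in CHLA9 and 32.6 CPM (31.1 to 34.1) in TC71, and these intervals overlapped. MNT, the broadly expressed MAX-binding repressor, was at 31.6 CPM (30.8 to 32.4) in CHLA9 and 9.13 CPM (8.37 to 9.94) in TC71, 3.46-fold higher in CHLA9. MLX was at 68.0 CPM (66.8 to 69.3) in CHLA9 and 29.2 CPM (27.8 to 30.6) in TC71, 2.33-fold higher in CHLA9. The order in CHLA9 was MLX, MXI1, MNT and MAX, with intervals apart. In TC71 it was MXI1, MAX, MLX and MNT, where neighbouring intervals overlapped for MXI1 and MAX and for MAX and MLX.

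The target genes were the most abundant members. ODC1, the first enzyme of polyamine synthesis, was at 322 CPM (319 to 324) in CHLA9 and 299 CPM (294 to 303) in TC71. NCL, which encodes the nucleolar protein nucleolin, was at 1494 CPM (1488 to 1499) in CHLA9 and 2325 CPM (2312 to 2337) in TC71. NPM1, which encodes the nucleolar chaperone nucleophosmin, was at 1973 CPM in CHLA9 and 2587 CPM in TC71. NCL and NPM1 were within the top 100 genes of each library, at ranks 93 and 68 in CHLA9 and 60 and 51 in TC71. NPM1 and NCL have processed copies elsewhere in the genome, and reads shared with them could not be told apart here.

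Between the lines, 4 of the 10 members were at least 2-fold apart, MYCN, MYCL, MNT and MLX, each of them higher in CHLA9, with the first 2 near background in TC71. Over all 12932 genes with a mean of at least 1 CPM, 31.2% were at least 2-fold apart and 18.9% were at least 2-fold higher in CHLA9. MYCN fell under that mean, and 3 of the 9 members above it were at least 2-fold apart. The log2 difference of TC71 from CHLA9 was 0.41 for MYC (0.38 to 0.43), 0.24 for MAX, 0.64 for NCL and 0.39 for NPM1. It was -1.26 for MYCL (-1.57 to -0.96), -1.79 for MNT (-1.92 to -1.66) and -1.22 for MLX (-1.30 to -1.15). For MXI1 and ODC1 it was -0.07 and -0.11, and relative to the median of all tested genes, which was -0.21, these 2 turned to 0.13 and 0.10. Centring on that median raised the share of 2-fold calls that were higher in TC71 from 39.5% to 52.0% over all genes, and the same count of 3 members stayed at least 2-fold apart.

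Genes around the members were taken from lists of their pathways. Over all 12932 genes above the mean limit, 18.9% were at least 2-fold higher in CHLA9 and 12.3% in TC71. The counts of each list stand beside these shares. Of the 10 MAX network partners and antagonists, 9 were above the mean limit, 3 were at least 2-fold higher in CHLA9 and none in TC71. Beside MNT and MLX this was MXD3, a MAX-binding repressor of cycling cells, at 30.9 CPM in CHLA9 and 12.4 CPM in TC71. MLXIPL, the carbohydrate response factor that dimerizes with MLX, was at 0.0572 CPM in CHLA9 and 0.137 CPM in TC71, whereas its paralog MLXIP was at 37.5 CPM and 34.8 CPM. Of 17 genes for MYC cofactors and turnover, 3 were at least 2-fold higher in CHLA9 and none in TC71. KAT2A, the acetyltransferase GCN5, was at 43.6 CPM in CHLA9 and 6.08 CPM in TC71, 7.17-fold higher in CHLA9. ZBTB17, the MYC partner MIZ1 at repressed promoters, was 2.71-fold higher in CHLA9, at 26.3 CPM against 9.72 CPM.

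The lists of target pathways had medians close to 0. Their counts also stand beside 18.9% of all genes at least 2-fold higher in CHLA9 and 12.3% in TC71. Of 30 nucleolar and ribosome assembly genes, 3 were at least 2-fold higher in CHLA9 and none in TC71, with a median log2 difference of 0.02, while the median of all genes was -0.21. Those 3 were UBTF, the factor that loads RNA polymerase I, at 291 CPM in CHLA9 and 106 CPM in TC71, RRP9 at 41.0 and 19.1 CPM, and MYBBP1A at 54.2 and 25.8 CPM. Of 13 polyamine genes only EIF5A, the translation factor that carries the polyamine-derived residue hypusine, was at least 2-fold apart, at 496 CPM in CHLA9 and 234 CPM in TC71. Of 17 nucleotide synthesis genes, 2 were at least 2-fold higher in TC71 and 1 in CHLA9. ATIC, the last enzyme of purine synthesis, was at 28.2 CPM in CHLA9 and 134 CPM in TC71, 4.76-fold higher in TC71. PRPS2 was 2.15-fold higher in TC71, at 41.1 CPM, and PFAS was 2.09-fold higher in CHLA9, at 47.6 CPM.

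Of 18 genes for translation factors and metabolism, CCND2, which encodes cyclin D2, was at 50.7 CPM in CHLA9 and 1.66 CPM in TC71, a 30.5-fold difference, and EEF1E1 was at 112 CPM in CHLA9 and 289 CPM in TC71. Of 11 genes known as repressed by MYC, 7 were above the mean limit. Over all genes 31.2% were at least 2-fold apart, and of these 7 it was 3, in both directions. These 3 were chosen after their values were seen. CDKN1A, the p53-induced inhibitor of cyclin-dependent kinases, was at 0.263 CPM in CHLA9 and 7.20 CPM in TC71, GADD45B was at 1.48 and 5.24 CPM, and CDKN1C was at 6.20 and 1.89 CPM. PVT1, the long noncoding RNA next to MYC, was 2.9-fold higher in TC71, at 55.3 CPM against 19.1 CPM, while MYC itself differed by 0.41 on the log2 scale.

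**Figure D2:**
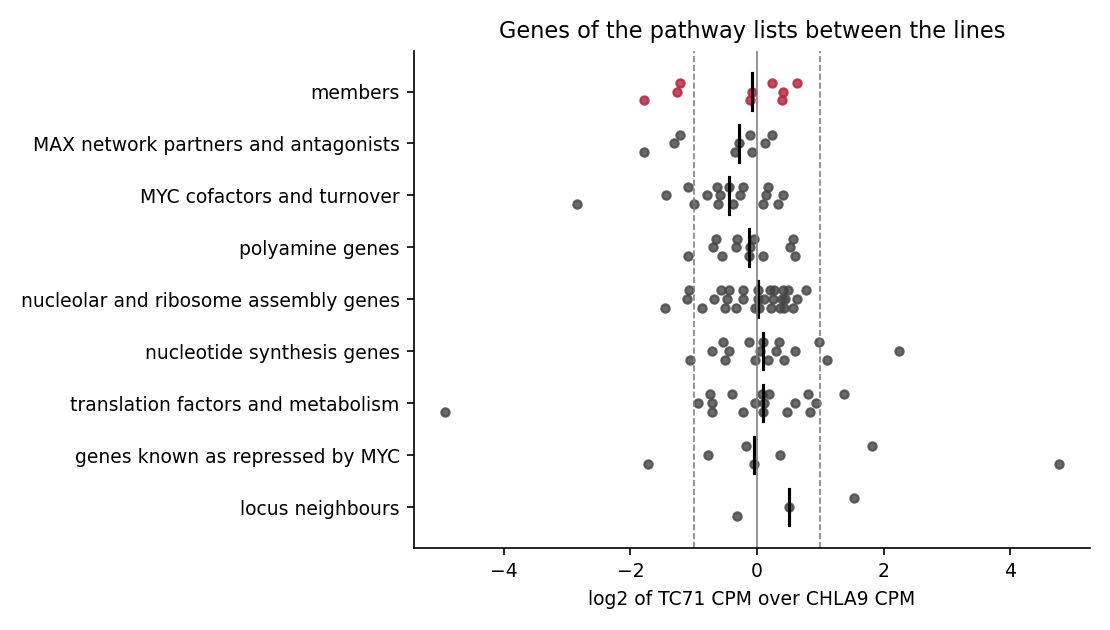
Each point is 1 gene of a list with a mean of at least 1 CPM, placed by the log2 of its CPM in TC71 over that in CHLA9; black bars are list medians and dashed lines mark 2-fold. The marker lists are not plotted. Medians of the plotted lists lie between -0.44, for MYC cofactors and turnover, and 0.50, for the locus neighbours, and the points farthest from 0 are CCND2 and CDKN1A.

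MYC UMIs varied among cells more than counting gives. At 10000 UMIs per cell, the variance of MYC UMIs over their mean was 1.63 in CHLA9 and 1.69 in TC71, where counting alone gives 1. Genes of a like mean had a median ratio of 1.09 in CHLA9 (396 genes) and 1.15 in TC71 (291 genes). The middle 80% of cells held 0 to 4 MYC UMIs in CHLA9 and 0 to 5 in TC71, and the highest cell held 18 and 15. NCL had a ratio of 2.34 in CHLA9 and 3.90 in TC71, against medians of 1.42 and 1.91 for genes of a like mean. ODC1 had 1.42 and 1.22, against 1.14 and 1.17. For NPM1 the ratio was 2.04 in CHLA9 and 2.22 in TC71, against 1.59 and 2.13. MAX, MXI1, MNT and MLX had ratios from 0.964 to 1.07 in both lines, the highest for MNT in CHLA9.

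**Figure D3:**
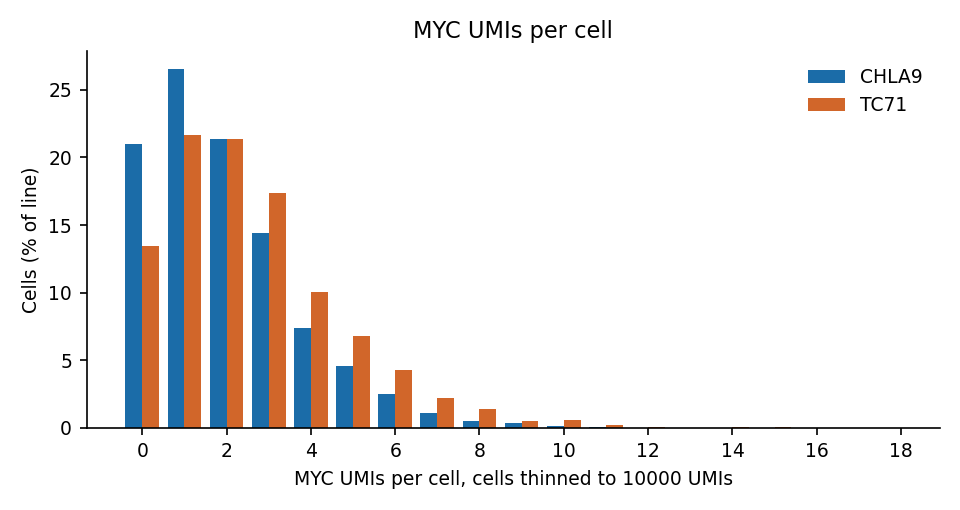
Share of the cells of each line (percent, 4510 cells of CHLA9 and 1670 of TC71) by their number of MYC UMIs after each cell was thinned to 10000 UMIs. Cells with no MYC UMI make up 21.0% of CHLA9 and 13.5% of TC71, and the TC71 bars lie to the right of those of CHLA9.

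Phases of the cell cycle were assigned from scores of S and G2M genes, and none of the members is a scoring gene. In CHLA9 there were 1015 G1, 1743 S and 1766 G2M cells, and in TC71 226, 834 and 669. The G1 group of TC71 held few cells and was not free of a mitotic gene: AURKA, a scoring gene, was at 72.0 CPM in its G1 cells and 41.8 CPM in its S cells, against 12.1 CPM in the G1 cells of CHLA9. MYC was highest in G1 in both lines as scored. In CHLA9 it was at 239.8 CPM in G1 (234 to 245), 178 CPM in S (175 to 181) and 183 CPM in G2M (180.5 to 187). In TC71 it was at 303 CPM in G1 (290.1 to 317), 222 CPM in S (217 to 228) and 277 CPM in G2M (270.2 to 283). S cells were thus lower than G1 cells by a like amount, with log2 differences of -0.43 in CHLA9 (-0.47 to -0.39) and -0.45 in TC71 (-0.52 to -0.38). From S to G2M, MYC differed by 0.04 in CHLA9 (0.01 to 0.08) and by 0.32 in TC71 (0.27 to 0.37) on the log2 scale. The difference of G2M from G1 was -0.39 in CHLA9 (-0.43 to -0.35) and -0.13 in TC71 (-0.21 to -0.06), and in TC71 it lay between -0.25 and 0.04 over other filters, scalings and phase scorings. PVT1, its neighbour, was level over G1, S and G2M, at 19.5, 18.8 and 19.2 CPM in CHLA9 and at 56.0, 56.2 and 54.0 CPM in TC71.

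Among the antagonists, MNT was lowest in G2M in both lines. In CHLA9 it was at 38.1 CPM in G1, 36.2 CPM in S and 25.0 CPM in G2M, and in TC71 at 10.3, 10.3 and 7.49 CPM. The log2 difference of G2M from G1 was -0.61 in CHLA9 (-0.71 to -0.50) and -0.46 in TC71 (-0.88 to -0.04). MXD3 was highest in G2M, at 3.81 CPM in G1, 17.9 CPM in S and 53.2 CPM in G2M of CHLA9 and at 8.76, 5.55 and 21.0 CPM in TC71. From G1 to S it was higher in CHLA9 and lower in TC71. MXD4, another MAX-binding repressor, chosen after its values were seen, was lowest in G2M of CHLA9, at 14.6 CPM against 24.8 CPM in G1. MAX stayed between 25.5 and 27.7 CPM over the phases of CHLA9, with overlapping intervals for G1 and G2M, and between 27.7 and 32.3 CPM in TC71. MXI1 had its highest value in S of CHLA9, at 36.3 CPM, and in G2M of TC71, at 35.2 CPM. MLX lay between 64.5 and 71.7 CPM in CHLA9 and between 27.5 and 30.7 CPM in TC71.

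The targets differed in their phase profile between the lines. ODC1 was at 369 CPM in G1, 283 CPM in S and 335 CPM in G2M of CHLA9, lowest in S, and at 302, 329 and 264 CPM in TC71, highest in S. NCL was at 1544, 1519 and 1451 CPM in CHLA9, nearly level, and at 2080.1, 2495 and 2199 CPM in TC71, highest in S. NPM1 was at 2334, 2049 and 1758 CPM in CHLA9 and at 2729.7, 2769 and 2347 CPM in TC71, lowest in G2M in both. The log2 difference of G2M from G1 for NPM1 was -0.41 in CHLA9 (-0.42 to -0.40) and -0.22 in TC71 (-0.24 to -0.19). MYCN and MYCL were sparse in TC71, where G1 cells held 3 and 9 of their UMIs. In CHLA9, MYCN was at 2.09 CPM in G1, 1.08 CPM in S and 1.57 CPM in G2M.

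Within a line, genes with at least 5 CPM were counted as apart where 1 group of cells was at least 25% above or 20% below the other. Of 8 such members in CHLA9, MYC, MNT and NPM1 were lower in G2M than in G1 by that limit and none was higher. Over all genes of CHLA9, 21.4% were apart, 14.5% higher and 6.97% lower in G2M. In TC71, MNT alone of 8 was apart and was lower in G2M, where 28.0% of all genes were apart, 24.4% higher and 3.65% lower. The median of all genes in that comparison was 0.12 on the log2 scale in TC71. Relative to it NPM1 also passed, and 59.0% instead of 87.0% of the genes apart were higher in G2M. From G1 to S, MYC and ODC1 were lower by the limit in CHLA9, where 19.8% of all genes were apart and 6.53% lower. MYC alone was lower in S of TC71, where 15.1% of all genes were apart and 3.65% lower, and centring on the median changed the share higher from 75.8% to 62.3%. From S to G2M, MNT alone was lower in each line, beside 8.88% of all genes lower and 19.2% apart in CHLA9 and 3.55% and 17.1% in TC71, with a share higher of 79.3% in TC71 or 67.6% after centring. After centring ODC1 also passed in TC71, where its log2 difference went from -0.32 to -0.37. Among the pathway lists, none of 29 nucleolar genes was higher in G2M than in G1 of CHLA9 by the limit and 3 were lower, NPM1 among them, and in TC71 3 were higher and 1 lower. RRP9, a subunit of the U3 small nucleolar particle, was lower in both, with log2 differences of -0.49 and -0.39. Of 17 nucleotide synthesis genes, 5 were higher in S than in G1 of CHLA9 by the limit, beside 13.2% of all genes. In TC71 it was 2 of 17, near the 11.5% of all genes that were higher there. TYMS, 1 of the 17, is a scoring gene.

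**Figure D4:**
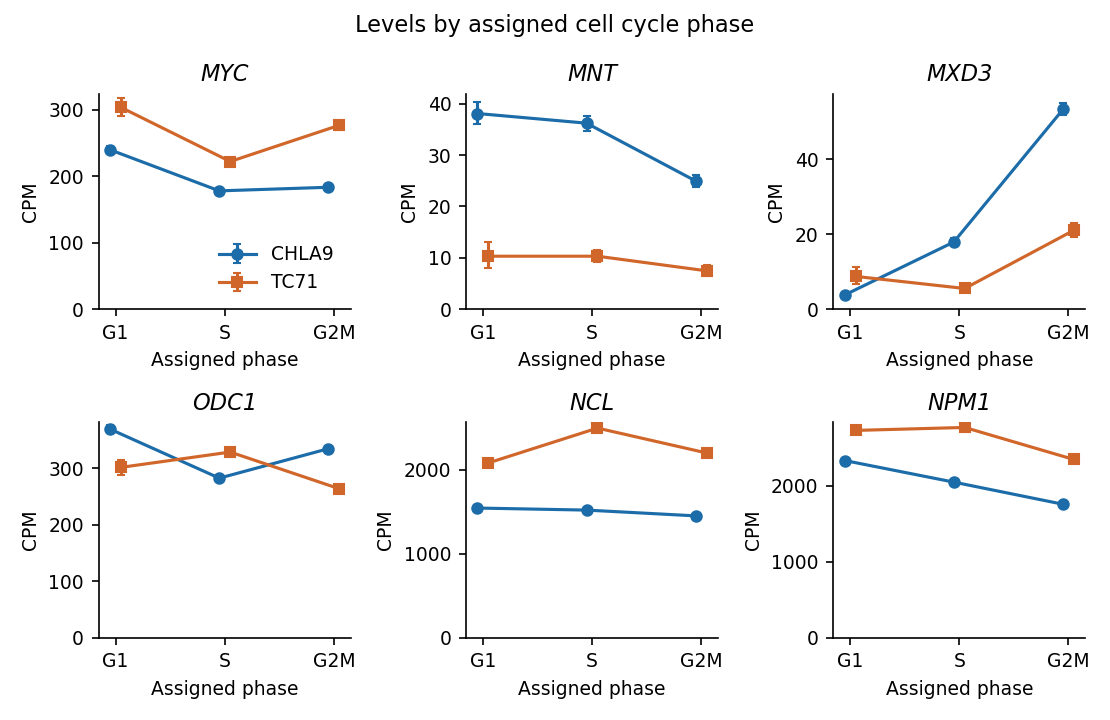
CPM (linear axis from 0) of MYC, MNT, MXD3, ODC1, NCL and NPM1 in G1, S and G2M cells of CHLA9 (circles) and TC71 (squares), with exact 95% Poisson intervals. MYC is highest in G1 in both lines as scored (in TC71 G2M is 0.04 higher on the log2 scale under 1 other scoring), MNT is lowest and MXD3 highest in G2M, and the ODC1 lines cross between G1 and S.

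Total UMIs per cell were taken as a measure of RNA content, and cells were cut into quintiles of UMIs within each phase. The median was 25141 UMIs in the lowest quintile and 57426 in the highest in CHLA9, and 19512 and 48072 in TC71. MYC took a smaller share of the UMIs in cells with more of them. From the lowest to the highest quintile it was at 225, 209.7, 188, 176 and 182 CPM in CHLA9 and at 294, 269, 259, 244 and 235 CPM in TC71. The log2 difference of the highest from the lowest quintile was -0.30 in CHLA9 (-0.35 to -0.25) and -0.32 in TC71 (-0.40 to -0.24). Counted per cell, MYC UMIs numbered 5.49 in the lowest and 11.1 in the highest quintile of CHLA9 and 5.29 and 11.6 in TC71. Since the quintiles were cut by total UMIs, this rise per cell is largely given by the grouping.

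The log2 differences between these quintiles were 0.06 for NCL and -0.10 for NPM1 in CHLA9, and 0.15 and 0.16 in TC71, where that of NCL rose to 0.35 and that of MYC shrank to -0.21 with quintiles of genes detected. NCL was at 1410.3 CPM in the lowest and 1473 CPM in the highest quintile of CHLA9 and at 2217 and 2465 CPM in TC71. NPM1 was at 2054 and 1914 CPM in CHLA9, lower in the highest quintile, and at 2404 and 2685 CPM in TC71, higher in the highest quintile. ODC1 was at 329.6 and 314 CPM in CHLA9 and at 305 and 296 CPM in TC71. MAX differed by -0.17 on the log2 scale in CHLA9 (-0.31 to -0.04) and by -0.05 in TC71 (-0.28 to 0.19), and the intervals of MXI1 and MLX included 0 in both lines. Between the highest and lowest quintile none of the 8 members in CHLA9 was apart by the limit, with MYC just inside it, and of all genes 9.17% were, 6.62% higher and 2.55% lower. In TC71, MYC, just past the limit, and MNT were lower in the highest quintile, where 13.6% of all genes were apart, 7.80% higher and 5.80% lower. The interval of MNT, -0.85 to 0.02, included 0. MXD3 was 1.20 higher on the log2 scale in the highest quintile of CHLA9 (1.02 to 1.38) and 0.37 higher in TC71 (-0.03 to 0.79).

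**Figure D5:**
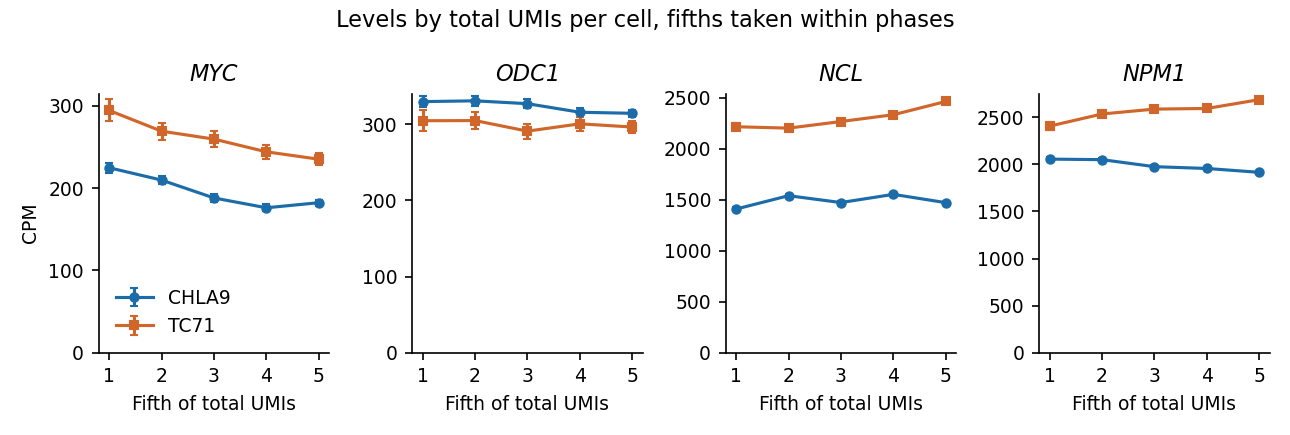
CPM (linear axis from 0) of MYC, ODC1, NCL and NPM1 in quintiles of the cells by total UMIs, taken within phases, from the lowest (1) to the highest (5), for CHLA9 (circles) and TC71 (squares) with exact 95% Poisson intervals. MYC is lower in the higher quintiles of both lines, and NPM1 is lower in CHLA9 and higher in TC71.

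Cells were then split by their MYC UMIs after thinning, which left 946 CHLA9 cells with none, 1198 with 1 and 2366 with 2 or more, and 225, 362 and 1083 in TC71. The median at full depth was 36637 UMIs without a MYC UMI and 33266 with 2 or more in CHLA9, and 35462 and 33103 in TC71. The groups also differed in phase: G1 made up 15.9% of the CHLA9 cells without a MYC UMI and 26.3% of those with 2 or more, and 8.89% and 14.5% in TC71. The targets differed little between these groups. The split rests on a median of 2 MYC UMIs per thinned cell, so counting error also places cells in a group. How far the targets follow the MYC level of a cell was therefore not measured. ODC1 was at 311 CPM without a MYC UMI and 332 CPM with 2 or more in CHLA9, a log2 difference of 0.10 (0.03 to 0.16), and at 286 and 308 CPM in TC71, a difference of 0.10 (-0.02 to 0.23). NCL was at 1439 and 1529.5 CPM in CHLA9 and at 2299 and 2370.0 CPM in TC71, with log2 differences of 0.09 and 0.04. NPM1 was at 1946 and 2063 CPM in CHLA9, a difference of 0.08 (0.06 to 0.11), and at 2710.2 and 2577 CPM in TC71, a difference of -0.07 (-0.11 to -0.03).

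None of 7 members was apart by the limit between these groups in CHLA9, where 5.09% of all genes were, 2.97% lower. In TC71, where 19.0% of all genes were apart and 6.54% lower, MAX alone was, at 36.9 CPM without a MYC UMI and 29.5 CPM with 2 or more, and the interval of its log2 difference, -0.68 to 0.04, included 0. MXD3 was lower with 2 or more MYC UMIs in CHLA9, at 23.3 CPM against 36.6 CPM. Within the phases of CHLA9, the log2 differences of MXD3 were -0.52 in G1, -0.61 in S and -0.46 in G2M. These values were given no intervals. MXD3 was lowest in G1 of CHLA9, so the G1 value rests on few UMIs. In TC71 the log2 difference of MXD3 was -0.31, and it lay between -0.36 and 0.09 over the settings run. PVT1, which lies beside MYC, was at 15.6 CPM without a MYC UMI and 19.7 CPM with 2 or more in CHLA9, and at 47.1 and 59.1 CPM in TC71. Its log2 difference was 0.33 in both lines (0.06 to 0.61 in CHLA9 and 0.03 to 0.64 in TC71), and was as low as 0.12 and 0.09 under other filters or thinning depths.

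The genes most like each member were sought over 30 pools of cells, from 2 lines, 3 phases and 5 quintiles of UMIs, among 5385 genes with at least 20 CPM in both lines, with log2 CPM centred within each line. Pools of 1 line share a library, and the values are descriptions. MYC was most like MRPS36 (Pearson r 0.84), CITED2 (0.80) and ATP6V1G1 (0.80). NPM1 was most like EBNA1BP2 (0.95), a nucleolar protein of ribosome assembly, PPA1 (0.92) and C1QBP (0.90). NCL was most like HNRNPU (0.86), HSPA4 (0.85) and HSPD1 (0.82), and ODC1 was most like MYDGF (0.86), METTL5 (0.85) and VBP1 (0.83). Member pairs are given per line. MYC and ODC1 had an r of 0.735 over the 15 pools of CHLA9 and -0.29 over those of TC71, MYC and NPM1 of 0.70 and -0.46, and MYC and NCL of 0.17 and -0.58. NCL and NPM1, both nucleolar, had an r of 0.42 in CHLA9 and 0.37 in TC71, and ODC1 and NPM1 of 0.29 and 0.64.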

How the data were processed

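Droplet 3′ libraries (v3.1 chemistry) of CHLA9 and TC71 were used, 1 each. The authors deposited raw UMI counts per gene and barcode, with no normalization, made with Cell Ranger 3.1.0 on hg38 per the submitters' processing notes. From these, kept cells were scored for phases with Seurat 5.3.0 and Matrix 1.6.5 in R 4.3.3, on genes detected in at least 10 cells, and CPM with exact 95% intervals (Poisson, Clopper-Pearson, or conditional binomial for ratios) was computed in python 3.11.15 with numpy 2.4.6, scipy 1.17.1 and pandas 2.3.3. Figures were drawn with matplotlib 3.10.9. Cells were thinned with a seed of 1. Doublets were not removed.

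Genes were described between the lines with a mean of at least 1 CPM, and within a line with at least 5 CPM. Members and lists were chosen with earlier results of these data known. By rule, named genes were the 10 members and the 3 genes most like each of MYC, ODC1, NCL and NPM1. Up to 4 genes per list were also named, at least 2-fold apart between the lines and with a mean of at least 10 CPM. Other genes were named outside this rule, among them MLXIP, MLXIPL, MYCNOS, DDX1, NBAS, CDKN1A, GADD45B and CDKN1C. E-boxes were sought in GRCh38 around GENCODE 44 start sites and in RefSeq promoters. Some list genes and sites are not reported here. No test was made, as each line had 1 library. The counting functions were tested on simulated data. Alternatives covered filters, scaling, phase scoring, quintiles and thinning.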

Additional observations from a re-analysis of the deposited data

Results flagged for a closer look

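Some members, and the MAX partner MXD3, differed in opposite directions in the 2 lines, with both counting intervals clear of 0. These intervals cover counting error only, while UMIs of ODC1, NCL and NPM1 varied among cells more than counting gives. Small values clear of 0 may therefore not mark a direction. In each case whether the lines differed was not tested, and the G1 cells of TC71 numbered 226. ODC1 differed between S and G1 by -0.39 on the log2 scale in CHLA9 and by 0.12 in TC71, and between G2M and S by 0.24 in CHLA9 and -0.32 in TC71. NCL differed between S and G1 by -0.023 in CHLA9, where it was nearly level, and by 0.26 in TC71. Between G2M and G1, NCL differed by -0.0898 in CHLA9 and 0.0800 in TC71, which became -0.0355 in TC71 relative to the median of all genes. MXI1 differed between G2M and S by -0.13 in CHLA9 and 0.21 in TC71.

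MYCL differed between G2M and S by -0.41 in CHLA9 and 0.82 in TC71, the second from 36 and 57 UMIs, a level near background. MXD3 differed between S and G1 by 2.23 in CHLA9 and -0.66 in TC71, or -0.27 in TC71 with the updated phase gene list. As first scored, AURKA, a G2M scoring gene, was also lower in TC71 in S (41.8 CPM) than in G1 (72.0 CPM). NPM1 differed between the highest and lowest quintile of UMIs by -0.10 in CHLA9 and 0.16 in TC71, and between cells with 2 or more and with 0 MYC UMIs by 0.084 in CHLA9 and -0.0726 in TC71.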

How the results depend on the processing

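No paired analysis was possible because CHLA9 and TC71 were represented by a single library apiece and nothing was tested. The members at least 2-fold apart between the lines numbered 3 or 4 in all settings run, the fourth being counted where MYCN passed the limit on the mean. Centring on the median of all genes, an alternative chosen after seeing the data, gave 2 members apart between G2M and G1, and between G2M and S, in TC71 in place of 1. Between quintiles of UMIs, the count of 0 in CHLA9 became 1 with at most 10% mitochondrial UMIs and with quintiles over all cells. In TC71 the count of 2 became 1 with the outlier step of 3 median absolute deviations, with quintiles of genes detected and with phases scored on all genes, and 0 with the mean of each cell's CPM. Between cells with 2 or more and 0 MYC UMIs in TC71, the count of 1 became 0 with at most 10% mitochondrial UMIs, without the 5% of cells with the most UMIs and with a thinning seed of 2, and 2 at 5000 UMIs. At 5000 UMIs, where fewer UMIs are drawn, a MYC UMI was seen in 57.8% of CHLA9 cells and 67.1% of TC71 cells, and the variance over the mean was 1.28 and 1.39 for MYC and 1.71 and 2.56 for NCL. The cause of the other changes was not tested. Of the remaining values, 742 stayed within their counting interval and 103 moved.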

Other observations

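Other genes around the network also differed over the phases, and were chosen here after their values were seen. KAT5, the TIP60 acetyltransferase that MYC recruits, was at 14.9 CPM in G1, 21.1 CPM in S and 28.6 CPM in G2M of CHLA9 and at 14.9, 15.1 and 20.1 CPM in TC71. CDKN1B, which encodes the cell cycle inhibitor p27 and is on the list of genes repressed by MYC, was highest in G2M, at 10.4, 16.4 and 37.2 CPM in CHLA9 and at 22.2, 23.0 and 43.2 CPM in TC71. AMD1, the enzyme that makes the aminopropyl donor of polyamine synthesis, was also highest in G2M, at 94.0 CPM against 75.8 CPM in G1 of CHLA9 and at 113 CPM against 82.0 CPM in TC71.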
